A study of Homo sapiens with 18 samples.

Results

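The genes described here are MYC, cyclin D1 (CCND1) and 8 further regulators of the G1 phase, namely CCND3, CCNE1, CDK2, CDK4, CDK6, CDKN1B, RB1 and E2F1, in PEO1 cells, a human ovarian cancer cell line. They were chosen by name, by matching the transcripts listed for each row of a gene-level count table to gene symbols. Each of the 10 names matched 1 of the 57736 rows, and all 10 passed the filter on low counts, which left 15318 genes to test. The cells had been transfected with siControl, a control siRNA, or sip53, an siRNA against p53, held for 48 h in phenol red-free medium with charcoal-stripped serum, and then treated with 10 nM estradiol (E2) for 2 h or 8 h, or left untreated (0 h). The 2 siRNAs and 3 times gave 6 groups of 3 libraries, 18 in all, made with a 3′ end counting kit (QuantSeq). The series title names the question, the effect of mutant p53 on estrogen receptor alpha activity. The hormone-depleted medium was common to all groups, a single name is given for the p53 siRNA, and no transfection-free sample is among those analysed. No sample without E2 was taken at 2 h or 8 h, so E2 and time since 0 h cannot be told apart. The labels do not say that the 3 libraries of a group came from separate cultures, so p-values measure the spread between these libraries, which may be technical.

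G1 is the interval in which a cell decides whether to copy its DNA. MYC is a transcription factor that drives growth and ribosome production, and both MYC and CCND1 are textbook estrogen-induced genes in breast cancer cells. D-type cyclins (CCND1, CCND3) switch on the kinases CDK4 and CDK6, and cyclin E1 (CCNE1) switches on CDK2. These kinases phosphorylate the retinoblastoma protein (RB1), which otherwise holds the transcription factor E2F1 in check, while p27 (CDKN1B) restrains the kinases.

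The promoter bases of 3 members are shown because each belongs to a member whose level the results turn on, or is its contrast: E2F1 and CDK6, which moved in opposite directions under sip53, and CDK4, the partner kinase of CDK6, which passed no test. They are the 250 bases before a RefSeq start (GRCh38.p14), at chr20:33686386-33686635 for E2F1, chr7:92836574-92836823 for CDK6 and chr12:57752311-57752560 for CDK4, all on the minus strand. CDK6 has a second RefSeq start, whose window (chr7:92833960-92834209) is not shown. Windows were read for 7 of the 10 members and not for MYC, CCND1 or CDK2. The lack of a window here does not mean that a gene has no RefSeq start. Capitals mark matches to the letters searched on both strands: CACGTG, the E-box bound by MYC with MAX, and TTTNGCGC, a form of the E2F site. The motifs did not overlap in these windows.
E2F1: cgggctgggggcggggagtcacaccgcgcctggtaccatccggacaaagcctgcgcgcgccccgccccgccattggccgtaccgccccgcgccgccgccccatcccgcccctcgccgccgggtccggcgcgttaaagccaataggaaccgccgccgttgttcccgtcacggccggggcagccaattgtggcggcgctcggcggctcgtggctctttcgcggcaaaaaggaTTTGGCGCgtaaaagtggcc
CDK6: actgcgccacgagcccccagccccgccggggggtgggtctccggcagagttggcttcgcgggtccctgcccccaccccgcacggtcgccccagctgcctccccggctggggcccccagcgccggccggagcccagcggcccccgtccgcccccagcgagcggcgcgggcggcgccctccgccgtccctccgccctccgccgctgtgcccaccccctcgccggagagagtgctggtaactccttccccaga
CDK4: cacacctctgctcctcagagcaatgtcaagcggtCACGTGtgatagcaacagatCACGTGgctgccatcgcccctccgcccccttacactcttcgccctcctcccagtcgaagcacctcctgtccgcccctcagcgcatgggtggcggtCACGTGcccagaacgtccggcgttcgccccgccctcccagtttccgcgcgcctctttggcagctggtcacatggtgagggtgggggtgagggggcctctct
The E2F1 window held 1 E2F match, which began at position -20 from the start (position -1 is the last base before it). The CDK4 window held 3 E-boxes, at -216, -196 and -101. Neither CDK6 window, shown or not shown, held a match to either motif. Of 35116 human promoter windows of this length, 1.51% held the E2F letters and 6.34% held an E-box. These matches describe the letters only.

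Library totals ran from 7542457 to 11307199 counts. Levels are given as CPM, the count divided by the library total on a common scale, adjusted by TMM, a factor that corrects for library composition. They are not divided by length and are used to compare 1 gene between libraries. Shares and ratios of counts between genes, given below, describe counts and not molecules. In bulk RNA, fewer cells of a kind and less RNA per cell cannot be told apart. Epithelial and ovarian carcinoma markers were present, 13 of 15 passing the filter and SOX17 at 0 counts in all libraries. Their summed level was 5820 to 6480 CPM in the siControl libraries and 7150 to 8500 CPM in the sip53 libraries. Of these markers only keratins were called higher with sip53 by edgeR: KRT7, KRT18 and KRT19 at 0, 2 and 8 h, and KRT8 at 0 and 2 h. The other markers tested, PAX8 and MUC16 among them, were not called in either direction. Uncalled markers also included WT1, higher with sip53 without overlap at 0 h and 2 h (log2 0.60 and 0.64, edgeR adjusted p = 0.078 and 0.0501). MSLN was likewise higher without overlap at 8 h (0.53, 0.0661). Of the 13 tested, 11, 8 and 11 had log2 values above 0 at 0, 2 and 8 h. Markers of other cells were low: at most 13.3 CPM summed over 7 fibroblast markers (COL1A2, COL3A1, DCN and LUM at 0), 20.4 CPM over 6 leukocyte markers (PTPRC and CD3E at 0) and 1.07 CPM over endothelial markers. Their part in the results was not tested.

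A pair of 0 h libraries is treated below as standing apart, though for siControl the measures differ. Replicate 2 of siControl 0 h had the lowest total and the largest root mean square log2 distance from the other libraries of its group. That distance was 0.604, against 0.583 for siControl 0 h replicate 1 and 0.445 to 0.583 for all the other libraries. By chi-square per degree of freedom, replicate 1 of siControl 0 h was the farther one. It was 22.9 between replicates 1 and 2, 12.2 between 1 and 3 and 10.4 between 2 and 3. Replicate 1 of sip53 0 h lay nearer to siControl: over 893 genes called in the same direction in the sip53 comparisons at both 2 h and 8 h, members left out, it showed 0.37 of the mean difference seen at those times, whereas sip53 0 h replicates 2 and 3 showed 0.89 and 0.9 and the 3 siControl 0 h libraries lay between -0.04 and 0.04. Results of the members that rest on either library are given with and without it. Results of the other genes named are given with all libraries only.

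**Figure D1:**
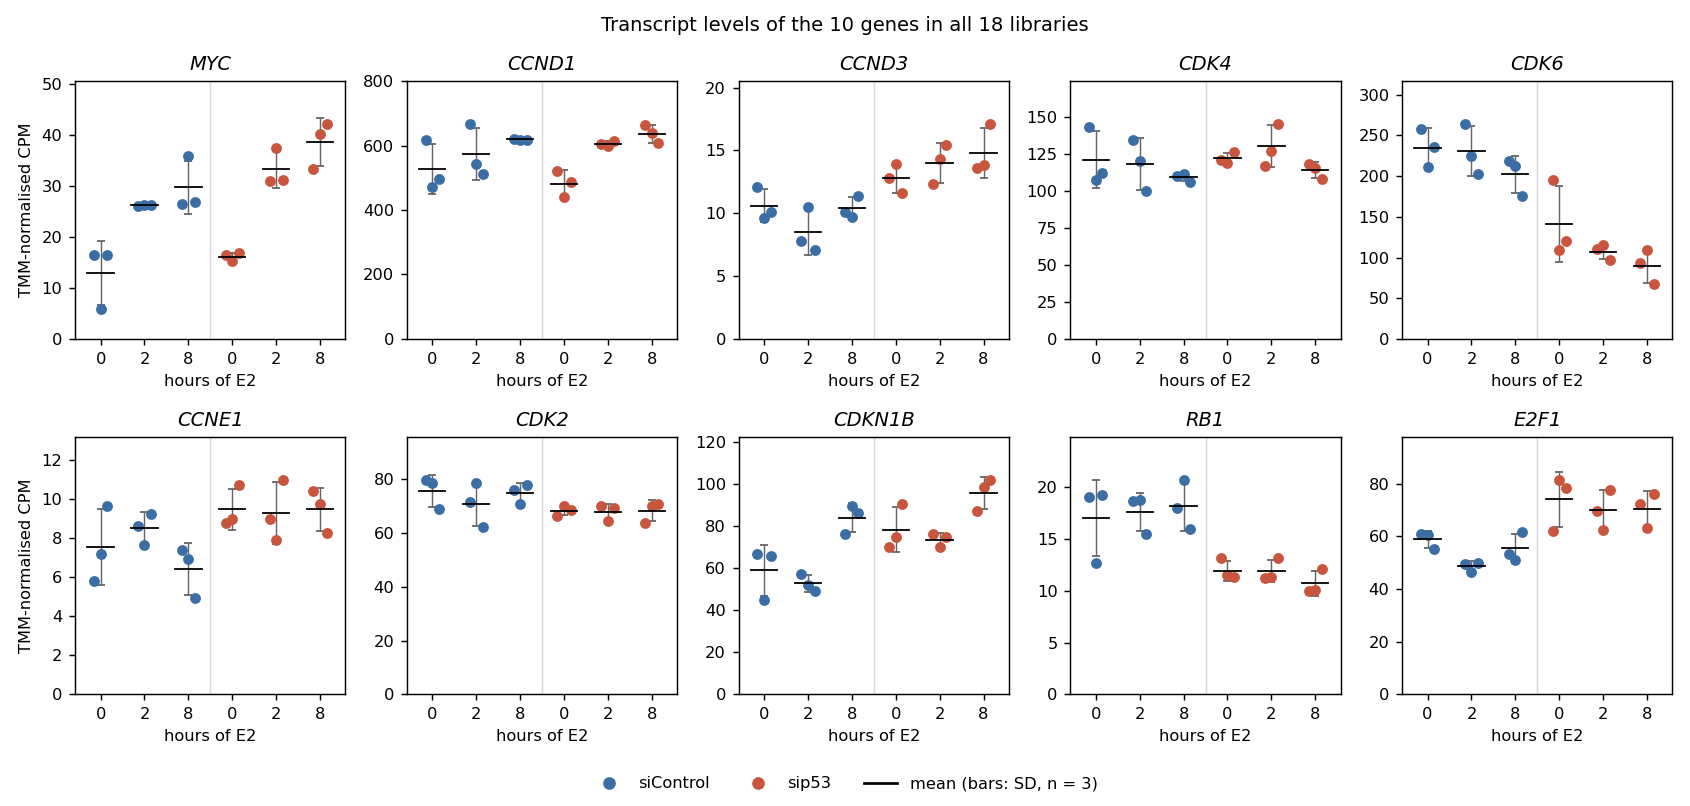
Level of each of the 10 genes in every library, as TMM-normalised CPM on a linear axis from 0, by siRNA and hours of E2; points are libraries, black lines means and grey bars SD (n = 3). CDK6 reaches 264 CPM in siControl and is lowest in sip53 at 8 h (68 CPM), and MYC is lowest at 0 h, where 1 siControl library lies at 5.77 CPM.

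MYC transcript was higher after E2 in both siRNA arms. The gene (ENSG00000136997) lies on chromosome 8, at 127735434 to 127741434 on the plus strand (GRCh38, GENCODE 29, as for the genes that follow). In siControl, MYC stood at 16.5, 5.77 and 16.5 CPM at 0 h, at 26, 26.2 and 26.3 CPM at 2 h and at 26.4, 35.8 and 26.9 CPM at 8 h. In sip53, it stood at 16.4, 15.2 and 16.8 CPM at 0 h, at 30.9, 37.5 and 31.1 CPM at 2 h and at 33.2, 40.2 and 42.1 CPM at 8 h. In each arm all 6 treated libraries were above all 3 untreated ones. The low siControl value rested on 45 counts, against 165 and 135 in the other libraries of that group.

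At 8 h MYC rose 2.28-fold in siControl (log2 fold change 1.19 ± 0.23 SE, edgeR adjusted p = 0.00473) and 2.39-fold in sip53 (1.25 ± 0.22, edgeR adjusted p = 0.00161). The 8 h calls held when any 1 of the 18 libraries was left out. Without siControl 0 h replicate 2 the siControl value was 0.85 (edgeR adjusted p = 0.0045), and with only the compared groups in the fit it missed the threshold (edgeR adjusted p = 0.094). At 2 h in sip53 MYC rose 2.06-fold (log2 1.04 ± 0.22, edgeR adjusted p = 0.0386). That call was lost without any 1 of the 6 libraries compared (log2 0.94 to 1.08, edgeR adjusted p 0.0986 to 0.23), and also without siControl 2 h replicate 2 (0.056), siControl 2 h replicate 3 (0.0508) or siControl 8 h replicate 1 (0.054), which enter only through the shared spread. Without siControl 0 h replicate 2 it was 0.00012.

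The 2 h value of MYC in siControl was as large but did not pass: log2 1.00 ± 0.23 with an edgeR adjusted p of 0.0683. It was 0.67 without siControl 0 h replicate 2 (edgeR adjusted p = 0.164) and 1.23 without siControl 0 h replicate 1 (edgeR adjusted p = 0.0264). DESeq2 called it (adjusted p = 0.00566). Between 2 h and 8 h MYC differed by 0.18 ± 0.22 in siControl and 0.21 ± 0.21 in sip53 on the log2 scale, neither past the threshold (edgeR adjusted p = 0.816 and 0.757).

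The E2 response of MYC in sip53 minus that in siControl was 0.04 at 2 h (95% interval -0.63 to 0.70) and 0.07 at 8 h (-0.59 to 0.72), in log2 units. Neither passed (edgeR adjusted p = 1 and 0.999), and the intervals allow differences of over 0.5 in either direction. Without siControl 0 h replicate 2 these values were 0.36 and 0.39. At equal times, MYC in sip53 minus siControl was 0.31 ± 0.23, 0.34 ± 0.22 and 0.37 ± 0.21 at 0, 2 and 8 h, and none passed (edgeR adjusted p = 0.442, 0.334 and 0.293). The 0 h value was -0.02 without siControl 0 h replicate 2. All MYC family counts came nearly wholly from MYC, 94.7% to 100% in 17 libraries and 62.5% in siControl 0 h replicate 2, where MYCL, a paralog, was at 3.46 CPM.

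**Figure D2:**
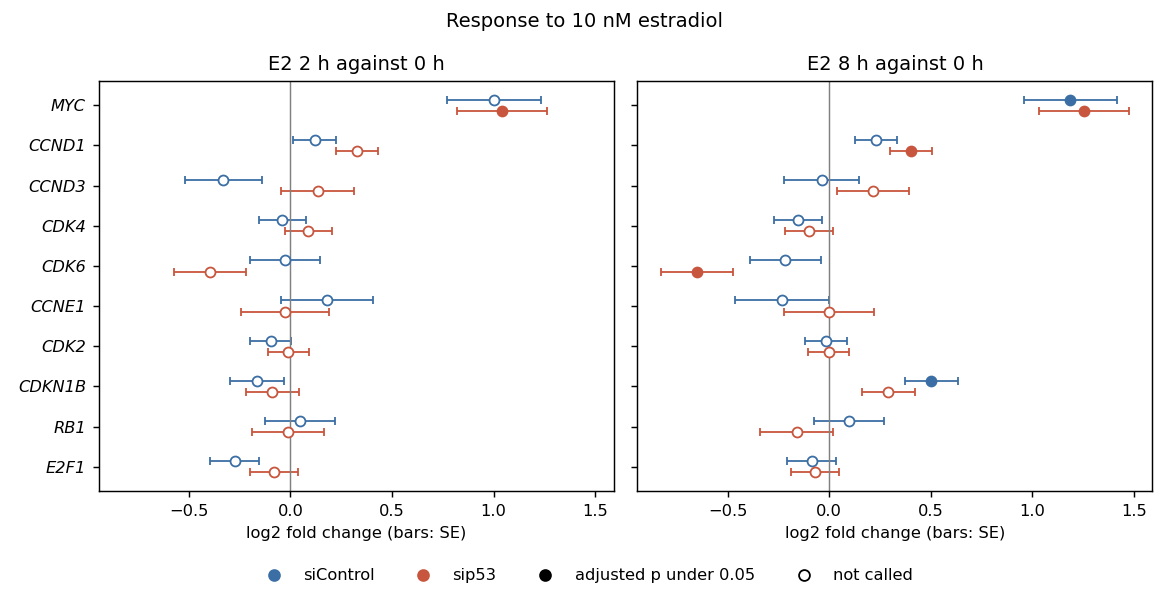
Log2 fold change of each gene after E2 for 2 h or 8 h against 0 h in the same siRNA arm (bars: SE from the edgeR fit over 18 libraries; filled points pass an adjusted p of 0.05). MYC lies near or above 1 in all 4 comparisons, and the remaining genes lie within 0.7 of 0.

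CCND1 (ENSG00000110092, chromosome 11, 69641087 to 69654474, plus strand) differed less between groups than MYC. In siControl it stood at 617, 471 and 495 CPM at 0 h, at 667, 543 and 511 CPM at 2 h and at 621, 618 and 618 CPM at 8 h. In sip53 it stood at 522, 440 and 486 CPM at 0 h, at 604, 598 and 615 CPM at 2 h and at 663, 640 and 608 CPM at 8 h. The sip53 treated libraries were all above the untreated ones, and in siControl this held at 8 h but not at 2 h. CCND1 rose 1.32-fold at 8 h in sip53 (log2 0.40 ± 0.11 SE, edgeR adjusted p = 0.0385). CCND1 no longer passed there without sip53 0 h replicate 2 (0.164) or 3 (0.111), sip53 2 h replicate 2 (0.0504), or sip53 8 h replicate 1 (0.137), 2 (0.0892) or 3 (0.058), each given as the edgeR adjusted p.

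In siControl at 8 h CCND1 was 0.23 ± 0.11 above 0 h on the log2 scale and did not pass (edgeR adjusted p = 0.266; 0.36 and 0.0469 without siControl 0 h replicate 1). The sip53 response minus the siControl response was 0.17 at 8 h (95% interval -0.14 to 0.48, edgeR adjusted p = 0.999), so the arms were not shown to differ. The sip53 comparisons of CCND1 at 0, 2 and 8 h gave -0.13, 0.08 and 0.04 (edgeR adjusted p = 0.469, 0.693 and 0.854). CCND2, the remaining D-type cyclin, had 0 counts in all 18 libraries, which allows up to 0.398 CPM in the shallowest one (3 counts; counting error only).

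CCND3 (ENSG00000112576, chromosome 6, 41934933 to 42050357, minus strand) was higher with sip53 at 2 h. It stood at 7.83, 10.5 and 7.06 CPM in siControl and at 12.3, 14.3 and 15.4 CPM in sip53, with no overlap. This was a 1.65-fold rise (log2 0.72 ± 0.18, edgeR adjusted p = 0.0126). It was lost without siControl 2 h replicate 3 (0.62, edgeR adjusted p = 0.0648) or sip53 2 h replicate 3 (0.65, 0.0661). At 0 h CCND3 was at 10.6 ± 1.31 and 12.8 ± 1.15 CPM (SD, n = 3) and at 8 h at 10.4 ± 0.877 and 14.8 ± 1.97 CPM in siControl and sip53, and neither difference passed (edgeR adjusted p = 0.395 and 0.0766). No E2 comparison of CCND3 passed.

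CDK6 (ENSG00000105810, chromosome 7, 92604921 to 92836594, minus strand) was the member with the largest differences between siRNAs at all 3 times, and CDK4 showed none that passed. In siControl CDK6 stood at 258, 211 and 236 CPM at 0 h, at 264, 225 and 203 CPM at 2 h and at 218, 213 and 176 CPM at 8 h. In sip53 it stood at 195, 109 and 120 CPM at 0 h, at 110, 115 and 97 CPM at 2 h and at 92.8, 109 and 68 CPM at 8 h. At each time all sip53 libraries were below all siControl ones, the nearest being sip53 0 h replicate 1, the library described above as lying nearer to siControl.

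CDK6 fell with sip53 to 0.6 of the siControl level at 0 h (log2 -0.74 ± 0.18 SE, edgeR adjusted p = 0.0128), to 0.465 at 2 h (-1.11 ± 0.18, 0.000499) and to 0.444 at 8 h (-1.17 ± 0.18, 0.000398). The 2 h and 8 h calls held without any 1 of the 18 libraries. The 0 h call was lost without sip53 0 h replicate 2 (-0.58, edgeR adjusted p = 0.0779) or 3 (-0.63, 0.0958), and with only the 0 h groups in the fit (0.0563). Without sip53 0 h replicate 1 the 0 h value was -1.03 ± 0.16 (edgeR adjusted p = 0.000306).

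CDK6 was also lower at 8 h than at 0 h of E2 within sip53 (log2 -0.65 ± 0.18, edgeR adjusted p = 0.0481), and this fall rested on single libraries. Without sip53 0 h replicate 1 it was -0.35 (edgeR adjusted p = 0.336), and without sip53 8 h replicate 3 it was -0.47 (0.279). It was -0.64 (0.166) with only the 2 groups in the fit and -0.68 (0.0895) without sip53 8 h replicate 1. Leaving out siControl 0 h replicate 3, siControl 2 h replicate 2, siControl 8 h replicate 1 or 2, or any sip53 2 h library kept -0.65 but moved the edgeR adjusted p for CDK6 to between 0.0565 and 0.0649. In siControl the 8 h value was -0.22 ± 0.17 (edgeR adjusted p = 0.576), and the difference between arms was -0.44 (95% interval -0.95 to 0.08, edgeR adjusted p = 0.999). That difference was -0.07 with both 0 h libraries named above left out.

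CDK4 (ENSG00000135446, chromosome 12, 57747727 to 57756013, minus strand), which shares the D-type cyclins with CDK6, had means between 109 and 130 CPM in all 6 groups, with libraries from 99.7 to 145 CPM. Its sip53 comparisons gave log2 0.01 ± 0.12, 0.14 ± 0.12 and 0.06 ± 0.12 at 0, 2 and 8 h (edgeR adjusted p = 0.968, 0.488 and 0.786). Counted within each library, CDK6 counts per CDK4 count were 1.66 to 2.1 over the 9 siControl libraries and 0.629 to 1.6 over the 9 sip53 libraries. The groups did not overlap, and 8 of the 9 sip53 libraries lay at or under 0.956, with sip53 0 h replicate 1 at 1.6. This ratio does not depend on the scaling of libraries. It is a ratio of counts and not of molecules.

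**Figure D3:**
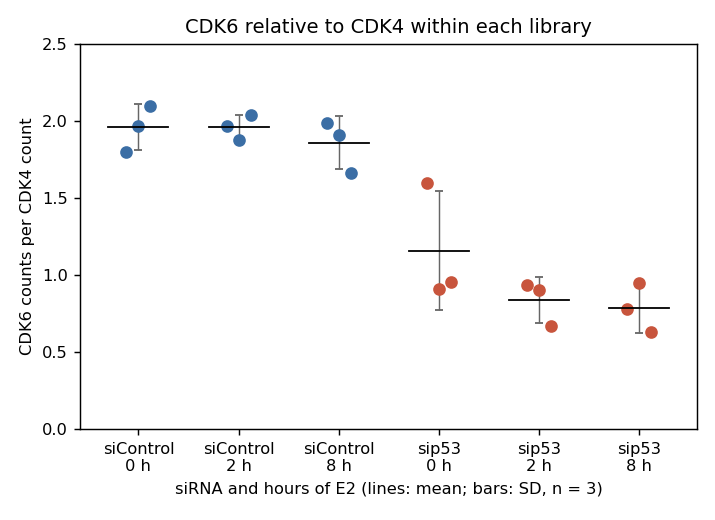
CDK6 counts divided by CDK4 counts in each library, by siRNA and hours of E2 (points: libraries; black lines: means; bars: SD, n = 3; linear axis from 0). The 9 siControl libraries lie at 1.66 to 2.1 and 8 of the 9 sip53 libraries at or under 0.956; the remaining one, at 0 h, lies at 1.6.

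Neither CCNE1 nor CDK2, the cyclin and kinase of the G1/S step, passed any of the 11 tests. CCNE1 (ENSG00000105173) lies on chromosome 19 at 29811898 to 29824308 and CDK2 (ENSG00000123374) on chromosome 12 at 55966769 to 55972784, both on the plus strand. CCNE1 was a low-count gene, between 4.92 and 11 CPM over all libraries. Its largest difference was at 8 h, where the siControl libraries were at 7.42, 6.91 and 4.92 CPM and the sip53 libraries at 10.4, 9.77 and 8.26 CPM. The libraries did not overlap there, with a log2 difference of 0.57 ± 0.22 that did not pass (edgeR adjusted p = 0.113). CDK2 lay between 62.3 and 79.9 CPM, with group means from 67.9 to 75.8 CPM, the narrowest range of the 10 members (0.16 on the log2 scale, against 1.7 for MYC and 1.41 for CDK6).

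CDKN1B (ENSG00000111276, chromosome 12, 12715058 to 12722371, plus strand), which encodes the kinase inhibitor p27, was higher after 8 h of E2 in siControl. In siControl it stood at 66.5, 45 and 65.6 CPM at 0 h, at 57.2, 52.1 and 49.1 CPM at 2 h and at 76.1, 89.3 and 85.9 CPM at 8 h. In sip53 it stood at 69.9, 74.6 and 90.2 CPM at 0 h, at 76, 69.8 and 74.7 CPM at 2 h and at 87.1, 98.3 and 102 CPM at 8 h. The siControl 8 h libraries were all above those at 0 h and 2 h, and in sip53 the 8 h libraries were all above those at 2 h but overlapped those at 0 h.

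In siControl CDKN1B rose 1.42-fold from 0 h to 8 h (log2 0.50 ± 0.13 SE, edgeR adjusted p = 0.0408) and 1.59-fold from 2 h to 8 h (0.67 ± 0.13, 0.00973). The first call was lost, as edgeR adjusted p, without siControl 0 h replicate 2 (log2 0.35, 0.206), siControl 2 h replicate 2 (0.057), siControl 8 h replicate 2 (0.172) or 3 (0.11) or any sip53 2 h library (0.0508 to 0.0583), and with only the 2 groups in the fit (0.165). The second was lost without siControl 2 h replicate 2 (0.0529) or 3 (0.0675) or siControl 8 h replicate 2 (0.0576). In sip53 the same 2 comparisons of CDKN1B gave 0.29 ± 0.13 and 0.38 ± 0.13 and did not pass (edgeR adjusted p = 0.294 and 0.174). The rise of CDKN1B from 2 h to 8 h in sip53 did pass under 2 other settings. These were only the compared groups in the fit (0.38, edgeR adjusted p = 0.0423) and both 0 h libraries named above left out (0.39, 0.0438). The 8 h response differed between arms by -0.21 (95% interval -0.59 to 0.17, edgeR adjusted p = 0.999), and by -0.07 without siControl 0 h replicate 2.

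With sip53, CDKN1B rose 1.39-fold at 2 h (log2 0.48 ± 0.13, edgeR adjusted p = 0.0201). That call was lost without siControl 2 h replicate 2 (0.0678) or 3 (0.0751) or sip53 2 h replicate 1 (0.0634) or 3 (0.0677). At 0 h the value was 0.40 ± 0.13 (edgeR adjusted p = 0.0562; 0.0236 without siControl 0 h replicate 1 and 0.0237 without sip53 0 h replicate 1). Without siControl 0 h replicate 2 that value was 0.26 (edgeR adjusted p = 0.223). At 8 h it was 0.19 ± 0.13 (0.383). DESeq2 called the 0 h difference of CDKN1B (adjusted p = 0.0278), as did the edgeR fit with upper-quartile scaling (0.0394) and without a filter (0.0209). CDKN1B made up 69.4%, 66.8% and 77.4% of the counts of CDKN1A, CDKN1B and CDKN1C in siControl at 0, 2 and 8 h, and 83.2%, 85.8% and 86.9% in sip53 (means of 3). CDKN1A, the inhibitor p21 and a textbook p53 target, was at 22.3 ± 3.78, 24.4 ± 2.24 and 22.8 ± 2.65 CPM in siControl and at 13.6 ± 1.29, 10.4 ± 1.14 and 11.5 ± 2.46 CPM in sip53 (SD, n = 3).

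RB1 and E2F1 moved in opposite directions with sip53 at 2 h. RB1 (ENSG00000139687) lies on chromosome 13 at 48303726 to 48599436 on the plus strand, and E2F1 (ENSG00000101412) on chromosome 20 at 33675683 to 33686404 on the minus strand. RB1 stood at 18.6, 18.7 and 15.5 CPM in siControl and at 11.2, 11.3 and 13.1 CPM in sip53 at 2 h. At 8 h it stood at 18, 20.7 and 15.9 CPM in siControl and at 9.95, 10.1 and 12.1 CPM in sip53. At both times all sip53 libraries were below all siControl libraries. At 0 h RB1 was at 19, 12.7 and 19.2 CPM in siControl and at 13.1, 11.5 and 11.3 CPM in sip53, which overlap through siControl 0 h replicate 2.

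RB1 fell to 0.674 of the siControl level at 2 h (log2 -0.57 ± 0.17, edgeR adjusted p = 0.0346) and to 0.588 at 8 h (-0.77 ± 0.18, 0.00857). The 8 h call was lost without siControl 8 h replicate 2 (-0.66, edgeR adjusted p = 0.0501). The 2 h call was lost without siControl 2 h replicate 1 (0.0763) or 2 (0.128) or any of sip53 2 h replicates 1 to 3 (0.104, 0.105 and 0.0583), and without a filter on low counts (0.0734). At 0 h RB1 differed by -0.51 ± 0.18 and did not pass (edgeR adjusted p = 0.0693; -0.67 and 0.0273 without siControl 0 h replicate 2). No E2 comparison of RB1 passed.

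E2F1 stood at 49.4, 46.6 and 50 CPM in siControl and at 69.6, 62.2 and 77.5 CPM in sip53 at 2 h, a 1.43-fold rise (log2 0.52 ± 0.12, edgeR adjusted p = 0.00665). It missed the threshold without sip53 2 h replicate 3 (0.44, edgeR adjusted p = 0.0542). At 0 h E2F1 was at 61, 60.4 and 55 CPM against 62.1, 81.5 and 78.4 CPM, and at 8 h at 53.3, 51.1 and 61.7 CPM against 72.4, 63 and 76.1 CPM, in siControl and sip53. The sip53 libraries were above the siControl libraries at all 3 times, by 0.33 ± 0.12 at 0 h (edgeR adjusted p = 0.0811) and 0.35 ± 0.12 at 8 h (0.0683), which did not pass.

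The 0 h difference of E2F1 passed without sip53 0 h replicate 1 (0.45, edgeR adjusted p = 0.0159). The 8 h difference passed without siControl 8 h replicate 3 (0.0491), sip53 0 h replicate 1 (0.0402) or sip53 8 h replicate 2 (0.0446), and by DESeq2 (adjusted p = 0.0435). RBL1 (p107), a relative of RB1, also fell with sip53 at all 3 times (log2 -0.61, -0.63 and -0.56, edgeR adjusted p = 0.00349, 0.00193 and 0.00602). RB1 was 15.5%, 16.4% and 17.1% of the counts of RB1, RBL1 and RBL2 in siControl and 13.4%, 14% and 12.1% in sip53.

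**Figure D4:**
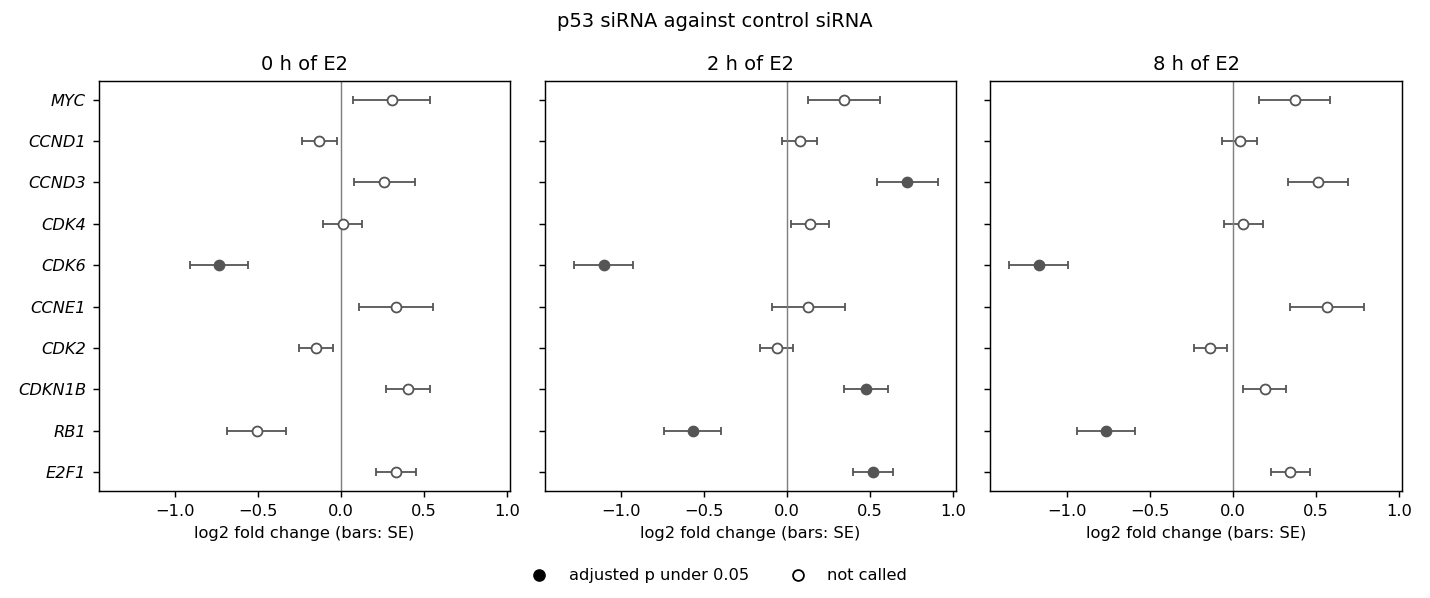
Log2 fold change of each gene in sip53 against siControl at 0, 2 and 8 h of E2 (bars: SE from the edgeR fit over 18 libraries; filled points pass an adjusted p of 0.05). CDK6 is lowest at each time, from -0.74 to -1.17, RB1 is the next lowest, and CCND3, CDKN1B and E2F1 are filled on the higher side at 2 h.

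Of the 10 members, CDK6 alone was called with sip53 at 0 h, where 3.98% of all 15318 genes were called higher and 5.14% lower (9.12% in all), so 1 of 10 was near the background. At 2 h 3 members rose and 2 fell, where 4.42% of all genes were called higher and 7.79% lower (12.2% in all). At 8 h 2 members fell and 0 rose (by DESeq2, 1 rose, E2F1), against 6.14% lower and 2.81% higher (8.96% in all). Upper-quartile scaling moved the 8 h split over all genes from 431 higher and 941 lower to 617 and 838. Members whose libraries did not overlap numbered 2 higher and 1 lower at 0 h (12.6% and 11.9% of all genes), 4 and 2 at 2 h (15.1% and 18.1%) and 3 and 2 at 8 h (14.6% and 14.9%).

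The E2 comparisons at 2 h called 0 members in siControl, where DESeq2 called 1 and 2 had an unadjusted p under 0.05, and 1 member in sip53, against 0.228% and 0.307% of all genes. At 8 h they called 2 members in siControl and 3 in sip53, against 2.6% and 2.74%. From 2 h to 8 h, 1 member was called in siControl and 0 in sip53 (0 by DESeq2, 1 at an unadjusted p under 0.05), against 1.02% and 1.38%.

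With both 0 h libraries that stood apart left out, the member counts for sip53 against siControl were 3, 5 and 3 at 0, 2 and 8 h. Those for E2 against 0 h were then 0 at 2 h and 1 at 8 h in siControl, and 1 at 2 h and 2 at 8 h in sip53. The E2 comparisons of an arm share its 0 h libraries, and the sip53 comparisons share libraries with both. No member differed between arms in its E2 response by edgeR or DESeq2, and 0 had an unadjusted p under 0.05. Over all genes edgeR called 0% at either time (451 and 583 genes at an unadjusted p under 0.05), and DESeq2 called 1 and 2 genes. The intervals were widest for MYC, given above, and for CCNE1, from -0.85 to 0.44 at 2 h and from -0.42 to 0.88 at 8 h.

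The rest of the pathway was read from 4 lists: MYC-activated targets (23 of 24 tested), MYC network partners (18 of 20), E2F-activated targets (20 of 21) and other G1 and G1/S genes (29 of 32). While MYC was higher after E2, 0 of the 23 MYC targets were called in either direction by edgeR after 8 h in siControl or sip53. DESeq2 also called 0, and 2 had an unadjusted p under 0.05 in each arm. Over all genes 2.6% and 2.74% were called, so a count of 0 among 23 was near the background. The log2 medians of the targets were -0.05 and -0.03, beside 0 and -0.01 over all genes. Their values ran from -0.40 to 0.27 in siControl and from -0.43 to 0.25 in sip53. At 2 h the medians were 0.05 and 0.04, again with 0 called by edgeR and by DESeq2 in both arms (3 and 0 at an unadjusted p under 0.05). MAX, the binding partner of MYC, had means from 64.3 to 72.2 CPM over the 6 groups.

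By edgeR, calls after E2 among E2F targets and other G1 genes came at 8 h alone. Over all genes 2.6% were called there in siControl and 2.74% in sip53. In siControl at 8 h, GINS2, a helicase subunit, rose by 0.56 ± 0.15 (edgeR adjusted p = 0.0474) and PCNA, the replication clamp, by 0.49 ± 0.13 (0.0488), out of 20 E2F targets with a median of 0.10. In sip53 at 8 h, GINS2 and PCNA gave 0.032 and 0.325, which did not pass (edgeR adjusted p = 0.955 and 0.234). CCNE2, an E-type cyclin like CCNE1, rose there by 0.69 ± 0.18 (edgeR adjusted p = 0.0356), the only one of 29 other G1 genes called. In siControl at 8 h 0 of these 29 were called by edgeR or DESeq2 (5 at an unadjusted p under 0.05). Their 8 h responses differed between arms in 0 by either method (1 at an unadjusted p under 0.05). Among the MYC network partners, MLX rose from 2 h to 8 h in sip53 (0.57 ± 0.14, edgeR adjusted p = 0.0465).

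With sip53, 3 of the other G1 genes fell at 0 h, and 5 fell and 1 rose at 2 h and again at 8 h. Over all genes 5.14%, 7.79% and 6.14% were called lower and 3.98%, 4.42% and 2.81% higher at 0, 2 and 8 h. The list had medians of 0.05, -0.04 and 0.09. CDKN1A fell at all 3 times (log2 -0.71, -1.22 and -0.98, edgeR adjusted p = 0.0127, 0.000142 and 0.0012), as did RBL1. MNAT1, a subunit of the CDK-activating kinase, fell at 2 h and 8 h (-1.21 and -0.90, edgeR adjusted p = 0.00163 and 0.0133), and TFDP2, an E2F partner, fell at 2 h and 8 h (-0.52 and -0.49). At 0 h MNAT1 and TFDP2 were lower by -0.695 and -0.33 and did not pass (edgeR adjusted p = 0.0504 and 0.0753). E2F7, a repressor E2F, also fell at 2 h and 8 h (-0.81 and -0.98, edgeR adjusted p = 0.0178 and 0.00678), and FBXW7, a ubiquitin ligase subunit that recognises cyclin E and MYC, at 0 h (-0.35 ± 0.11, 0.0436). E2F7 at 0 h (-0.585, edgeR adjusted p = 0.0906) and FBXW7 at 2 h and 8 h (-0.27 and -0.29, 0.115 and 0.0988) were lower too, without passing. On the higher side were E2F2, an activator E2F, at 2 h (0.87 ± 0.25, edgeR adjusted p = 0.0256) and TFDP1 at 8 h (0.41 ± 0.13, 0.0482).

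Among the 23 MYC targets 2 rose with sip53 at each time, and 3 fell at 2 h (medians 0.07, 0.08 and 0.09). Beside this and the list counts below, 3.98%, 4.42% and 2.81% of all genes were called higher at 0, 2 and 8 h. The shares called lower were 5.14%, 7.79% and 6.14%. LDHA, lactate dehydrogenase A, rose at all 3 times (0.52, 0.47 and 0.56, edgeR adjusted p = 0.000797, 0.00126 and 0.000388), as did TFRC, the transferrin receptor (0.43, 0.33 and 0.35). At 2 h the nucleolar genes NOP56 (-0.87 ± 0.20, edgeR adjusted p = 0.0075), WDR43 (-0.53) and GNL3 (-0.33) fell. At 0 h and 8 h these genes were also lower, without passing: NOP56 by -0.53 and -0.56, WDR43 by -0.42 and -0.41 and GNL3 by -0.17 and -0.15. Of the list of MYC network partners, MXD3 (0.70) and MYCBP (0.43) rose at 0 h. At 2 h RUVBL2 (0.47) rose and MLX (-0.47) and MYCBP2 (-0.49) fell. At 8 h RUVBL1 (-0.54) fell. E2F targets gave 1 call at 0 h (TYMS, thymidylate synthase, 0.56), 1 at 2 h (CHEK1, a checkpoint kinase, -0.38) and 0 at 8 h by edgeR, where DESeq2 called 1 and 4 had an unadjusted p under 0.05.

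**Figure D5:**
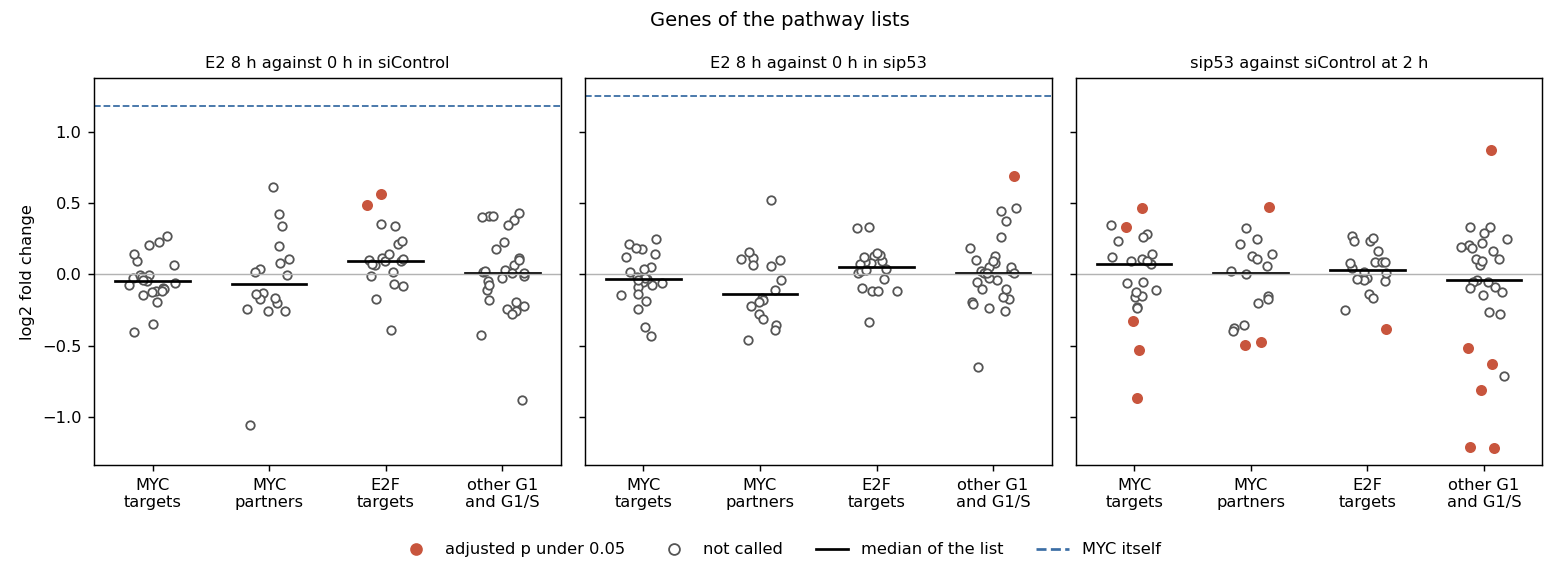
Log2 fold change of each tested gene of the 4 pathway lists after 8 h of E2 in siControl and in sip53, and in sip53 against siControl at 2 h (points: genes, filled where the edgeR adjusted p is under 0.05; bars: list medians; dashed line: MYC itself in the E2 comparisons). After E2 the 23 MYC targets lie between -0.43 and 0.27, under the MYC line at 1.19 or 1.25.

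Among the genes most like MYC over the 6 group means, by root mean square difference of centred log2 CPM among 9729 genes, were PELI1 (0.0683), C15orf48 (0.16), KLF4 (0.18) and RASGRP1 (0.196), where the centred MYC profile itself had a root mean square of 0.597. The closest to CCND1 were POLR1E (0.0147), MTCO3P12 (0.0192), ZNF579 (0.0261), FBXL4 (0.0272) and SH3BP5 (0.0317), against 0.142 for CCND1. MTCO3P12 is a nuclear pseudogene of a mitochondrial gene, so reads may be split between the copies and its level is uncertain. These are likenesses over 6 means from the same 18 libraries, given without a test.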

How the data were processed

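QuantSeq 3′ libraries of 18 PEO1 samples were analysed. The authors deposited expected counts per gene made with RSEM 1.3.3, with Bowtie2 and cutadapt also named and hg19 as the build, per the submitters' processing notes. No source used here names the annotation. As deposited, the expected counts were already whole (rounding moved 0 values). Each row's transcripts were matched to GENCODE 29. Of the rows, 52673 were named by 1 gene, 267 by a majority of transcripts, 154 by no majority and 4642 by no transcript of that release (0.635% of counts in the last 2 kinds), which stayed in the fit unnamed. From the counts, edgeR 4.0.16 (R 4.3.3) fitted 1 coefficient per group to all 18 libraries (TMM scaling, filterByExpr with a minimum count of 10, quasi-likelihood test). P-values were adjusted by Benjamini-Hochberg over all 15318 genes, and a gene was called at an adjusted p under 0.05. SE values follow from the fold change and its F statistic, and 95% intervals from the t distribution. The common biological coefficient of variation was 15.2%. Replicates differed beyond counting noise (chi-square per degree of freedom 4.04 to 22.9). The scripts were tested on simulated data.

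The alternatives were other scalings, no filter, DESeq2 1.42.0, a fit to the compared groups alone, a replicate block, each library left out in turn and, chosen after seeing the data, both 0 h libraries that stood apart left out. The members and lists were chosen with earlier results of these data known. All members are named. Up to 4 called genes per list, direction and comparison with the smallest adjusted p, and the 5 genes most like MYC and CCND1 (average log2 CPM at least 3), are named. E2F7, CDKN1A and MYCL values outside that rule, and the comparisons of marker levels, describe only. The level of the siRNA's target and 1 gene that this rule names are not reported here.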

Additional observations from a re-analysis of the deposited data

How the results depend on the processing

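Of 110 log2 values of the 10 members, 15 were called, and only these could reverse a called direction. In the alternatives 0 did so. Over all 2750 alternative values, called or not, a call was lost in 58 and gained in 20. The count of members called with sip53 at 0 h was 1. It was 2 with upper-quartile scaling, without a filter and by DESeq2, 0 with only the compared groups in the fit, and 3 with both 0 h libraries that stood apart left out. For E2 at 2 h in siControl the count went from 0 to 1 without a filter and by DESeq2. For E2 at 8 h in siControl it went from 2 to 0 with only the compared groups and to 1 with both libraries out. From 2 h to 8 h in sip53 it went from 0 to 1 under each of the last 2 settings. The cause of these shifts was not tested.

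Leaving out each library gave 0 to 3 members called with sip53 at 0 h, 1 to 5 at 2 h and 1 to 3 at 8 h. For E2 the ranges were 0 to 1 at 2 h and 1 to 3 at 8 h in siControl, and 0 to 1 at 2 h and 1 to 3 at 8 h in sip53. From 2 h to 8 h they were 0 to 1 in siControl and 0 in sip53, and the differences between arms stayed at 0.

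Same-numbered replicates were not shown to be paired: 3 of 45 pairs correlated above 0.1 (range -0.145 to 0.209), and 7 of 18 samples correlated best with their own number. With the replicate block, the count for E2 at 2 h in sip53 went from 1 to 0 (MYC adjusted p = 0.0638), and no other member call moved.

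Over all genes, counts moved by more than 1.5 times as follows. With only the compared groups, 284 against 1397 genes were called with sip53 at 0 h, 13 against 35 for E2 at 2 h in siControl, 131 against 399 at 8 h, 270 against 419 at 8 h in sip53, and 375 against 211 from 2 h to 8 h in sip53. Without a filter the E2 counts were 285, 789, 204 and 701 against 35, 399, 47 and 419, 313 and 403 against 157 and 211 from 2 h to 8 h, and 36 and 54 against 0 for the differences between arms. DESeq2 gave 127, 640 and 90 against 35, 399 and 47, 330 and 365 against 157 and 211, and 1 and 2 against 0. With both 0 h libraries out, 219 against 399 were called at 8 h in siControl, 21 against 35 at 2 h in siControl, and 253 and 324 against 157 and 211 from 2 h to 8 h.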
